A study of Mus musculus with 8 samples.

Results

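The BCL-2 family decides whether the outer membrane of the mitochondria stays intact, and 10 of its genes are described here in whole testes of mice with and without Tmem232. The members were picked by symbol from the deposited table, and all 10 were found among its 19906 genes. They are the membrane-permeabilising genes Bax, Bak1 and Bok, the genes Bid, Bcl2l11 and Bbc3 of BH3-only proteins, and the pro-survival genes Bcl2, Bcl2l1, Bcl2l2 and Mcl1. RNA came from testes of mice on a C57BL/6 background at 2 months of age, 4 labelled Tmem232-/- and 4 labelled Tmem232+/+. The knockout carries a CRISPR-Cas9 deletion of part of Tmem232 in all cells of the body, and the +/+ animals are wild type at this gene. The labels name no treatment. The libraries held between 15428421 and 16350871 estimated counts per animal.

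In this family, BAX and BAK open pores in the outer mitochondrial membrane, cytochrome c leaks out, and caspases are activated. Pro-survival proteins prevent this by holding BAX, BAK and the BH3-only proteins in a groove on their surface. BH3-only proteins are the sensors that fill this groove or activate BAX and BAK directly. In the testis many germ cells die during normal spermatogenesis, and male mice lacking Bax or Bcl2l2 are sterile.

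The element that gives the BH3-only proteins their name is a short helix, and its coding sequence is the feature shared by the members despite their opposite roles. The stretches of 45 bases are shown because they let pro-death and pro-survival members be compared at this element. They were read 5′ to 3′ on the coding strand from the principal GENCODE vM21 transcript of each gene (GRCm38). The capitals mark 6 codons, namely leucine or methionine, 3 codons of any kind, glycine or alanine, and aspartate. The 3 permeabilising genes come first, then the 3 BH3-only genes, then the 4 pro-survival genes.

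Bax: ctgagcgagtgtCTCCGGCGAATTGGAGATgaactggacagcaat
Bak1: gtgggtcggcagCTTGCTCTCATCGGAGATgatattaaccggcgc
Bok: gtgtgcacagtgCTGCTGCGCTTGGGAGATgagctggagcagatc
Bid: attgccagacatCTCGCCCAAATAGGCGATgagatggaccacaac
Bcl2l11: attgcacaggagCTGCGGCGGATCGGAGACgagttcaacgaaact
Bbc3: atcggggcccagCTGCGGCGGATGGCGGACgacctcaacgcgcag
Bcl2: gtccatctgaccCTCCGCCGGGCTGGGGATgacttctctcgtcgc
Bcl2l1: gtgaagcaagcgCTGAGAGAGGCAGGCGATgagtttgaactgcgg
Bcl2l2: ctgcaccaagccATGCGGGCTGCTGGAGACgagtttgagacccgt
Mcl1: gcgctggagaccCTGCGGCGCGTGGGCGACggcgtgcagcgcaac

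Each member held the pattern at 1 place in its coding sequence. The pattern was widened until it took in Bcl2l2, which starts with methionine, and Bbc3, which has alanine before the aspartate. It occurred in 27.6% of 21754 coding genes, and in 16.1% of the 5740 genes whose proteins have 192 to 331 residues, the range of the members. Over the 18 capital bases, Bcl2l11 and Bbc3 were the most alike pair with 15 identical bases. Bid and Bcl2l2 were the least alike pair with 5 identical bases.

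The count of Tmem232 did not verify the labels. The libraries labelled Tmem232-/- had 148, 132, 123 and 122 counts per 1000000 counts after TMM scaling (CPM), here as below in the order of replicates 1 to 4, and those labelled Tmem232+/+ had 111, 106, 108 and 109.9. All libraries labelled Tmem232-/- were thus above the others, with a log2 fold change of 0.27 (standard error, SE, 0.072). Its adjusted p was 0.034 in the quasi-likelihood test of edgeR, adjusted after Benjamini and Hochberg. The adjusted p was between 0.086 and 0.089 when replicate 1 or 2 of Tmem232-/- or replicate 2 or 4 of Tmem232+/+ was left out. A single count per gene cannot separate the deleted exons from the rest, so genotypes are named by label, and negative log2 fold changes mean less in the libraries labelled Tmem232-/-.

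In FPKM, which corrects for transcript length and so allows genes to be ranked, the pro-survival transcripts Bcl2l1 and Mcl1 were the most abundant of the 10 members. Bcl2l1, which encodes BCL-XL, led with 69.1 ± 2.88 FPKM in the libraries labelled Tmem232+/+ (SD, n = 4) and 61.7 ± 1.14 in those labelled Tmem232-/- (SD, n = 4). Mcl1 followed with 38.1 ± 1.24 and 36.1 ± 1.58 FPKM (SD, n = 4 each). Bcl2, the gene that named the family, was at the bottom with 0.248 ± 0.029 and 0.243 ± 0.017 FPKM (SD, n = 4 each). In the libraries labelled Tmem232+/+, Bcl2l1 was above 91.7% of the genes with any FPKM, and Bcl2 was above 17.8%.

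The order from Bcl2l1 over Mcl1, Bax, Bak1, Bcl2l2, Bid, Bok, Bcl2l11 and Bbc3 to Bcl2 was the same in the means of both genotypes. Among libraries labelled Tmem232+/+, the ranges of Bax and Bak1 overlapped and so did those of Bid and Bok, while other neighbours in the order were separate. Among libraries labelled Tmem232-/-, Bok and Bcl2l11 overlapped as well as these pairs. The largest step was the last, with Bbc3 at 6.38 times the FPKM of Bcl2 in the libraries labelled Tmem232+/+ and 5.95 times in the others. Bcl2l1 was at 1.82 and 1.71 times the FPKM of Mcl1.

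**Figure D1:**
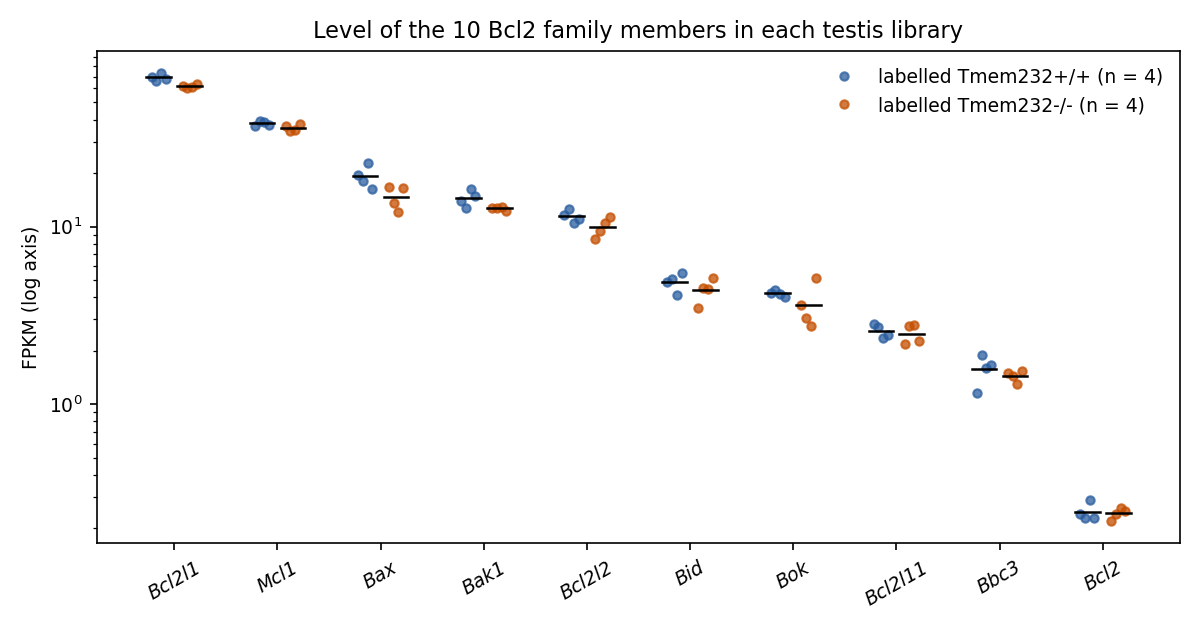
FPKM (log axis) of each member in each library, with blue points for libraries labelled Tmem232+/+, orange points for those labelled Tmem232-/-, and a black line at the mean of 4. The members span from 0.22 FPKM in Bcl2 to 73.1 FPKM in Bcl2l1, and most pairs of genotypes overlap.

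Between the genotypes, none of the 10 members passed an adjusted p of 0.05 in either direction (edgeR, Benjamini-Hochberg adjustment over 15787 tested genes), and 0 passed with DESeq2 or limma. All 10 were tested, since all passed the filter on low counts. Over all tested genes, 11.8% were called, 10.3% as higher and 1.46% as lower in the libraries labelled Tmem232-/-. At an unadjusted p under 0.05, 1 member was found, Bax, against 25.1% of all tested genes. With a limit of 2 on the fold change added to this, 0 members were found, against 5.59%.

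The log2 fold changes of the members lay between -0.35 in Bax and 0.01 in Bcl2. Of the 10, 9 were negative, against 9600 of the 15787 tested genes, and 8 to 10 were negative under the alternative scalings, filters and sets of libraries. The median was -0.11 for the members and -0.05 for all tested genes. These came to -0.071 and -0.0067 without replicate 1 of Tmem232+/+, and to -0.065 and 3.3e-05 without a filter on low counts. The 6 pro-death members had a median of -0.14 and the 4 pro-survival members a median of -0.07, a difference that was not tested. The 95% intervals of all members lay between -0.67 and 0.39, so that for each of them a fold change of 2 lay outside the interval. In bulk RNA of whole testis, fewer cells that hold a transcript and less of it per cell cannot be told apart.

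**Figure D2:**
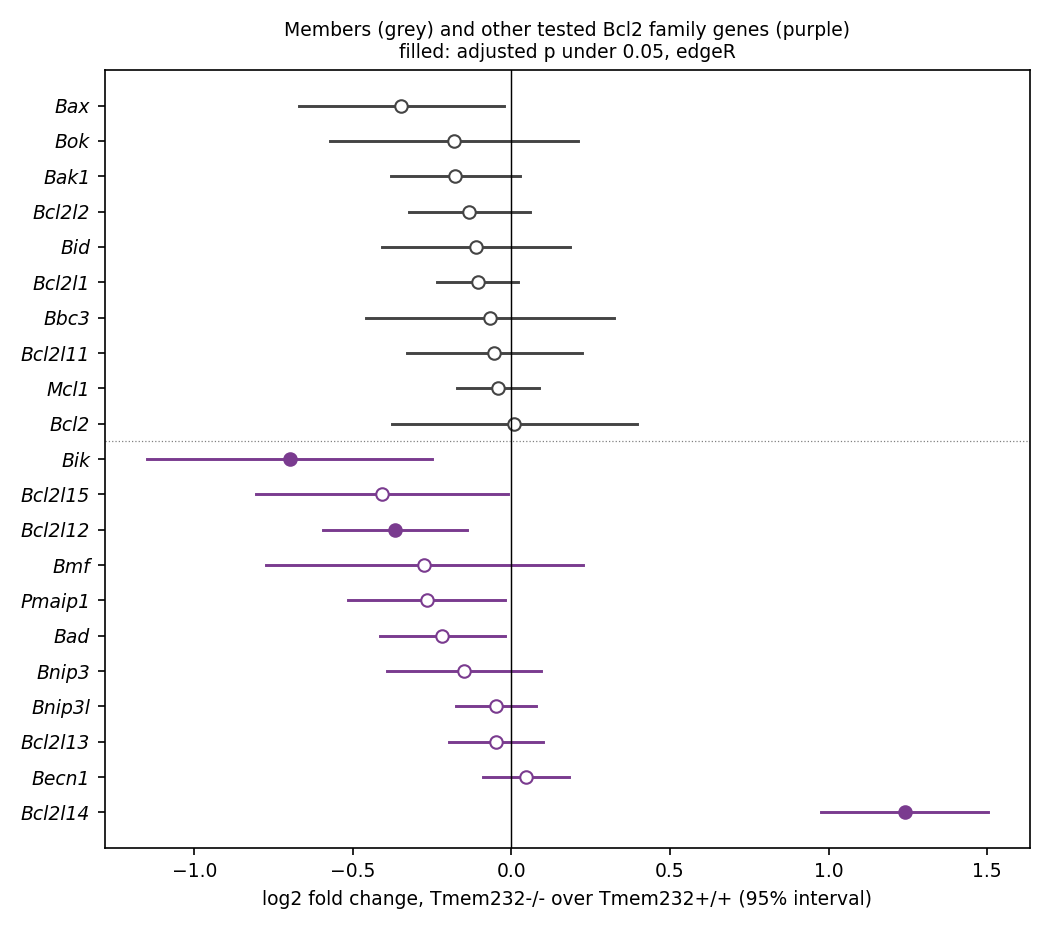
Log2 fold change of the libraries labelled Tmem232-/- over those labelled Tmem232+/+ with the 95% interval from edgeR, for the 10 members (grey) and the other 11 tested Bcl2 family genes (purple), where filled points passed an adjusted p of 0.05. The members run from -0.35 in Bax to 0.01 in Bcl2 with no filled point, and Bcl2l14 stands at 1.24.

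Bax, which encodes a pore-forming protein that moves from the cytosol to mitochondria, had the largest log2 fold change of the members. It lies on chromosome 7 from 45461695 to 45468205 (GRCm38.p6), and the stretch shown above is in exon 3 of 6 (chr7:45465991-45466035, minus strand). Its levels were 12.4, 9.73, 8.54 and 11.99 CPM under the label Tmem232-/- and 14.3, 12.5, 16.1 and 11.4 CPM under Tmem232+/+. Replicate 3 labelled Tmem232+/+ was the highest, and replicate 4 of that label was below 2 libraries of the other. Its log2 fold change was -0.35 (SE 0.147, 95% interval -0.67 to -0.02, unadjusted p = 0.038, edgeR adjusted p = 0.169), which is 1.27-fold higher in the libraries labelled Tmem232+/+. The exact permutation test gave a two-sided p of 0.114. Without replicate 3 labelled Tmem232+/+ the log2 fold change was -0.22. Exons of Bax share 192 of 1576 bases with the gene model Gm45808 on the same strand, and all 192 are coding.

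Bak1, whose protein sits in the mitochondrial membrane and forms pores like BAX, lies on chromosome 17 from 27011142 to 27028839. Its BH3 stretch is in exon 4 of 6 (chr17:27022525-27022569, minus strand). It had 22.4, 21.9, 22.1 and 20.7 CPM under the label Tmem232-/- and 24.0, 21.3, 28.1 and 25.1 CPM under Tmem232+/+. Replicate 2 labelled Tmem232+/+ fell among the libraries of the other label. The log2 fold change was -0.18 (SE 0.093, edgeR adjusted p = 0.267), and without replicate 3 labelled Tmem232+/+ it was -0.08. This library had the highest level of both Bax and Bak1. Bak1 shares 614 of its 2407 exon bases, 143 of them coding, with Ggnbp1 on the opposite strand. Ggnbp1 had between 477 and 580 CPM in the 8 libraries. The library kit is not stated to keep strand, so reads from these shared bases cannot be assigned to either gene.

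Bok, a relative of BAX and BAK whose protein is found mainly at the endoplasmic reticulum, lies on chromosome 1 from 93685575 to 93695770. Its BH3 stretch is split between exons 2 and 3 of 5 (chr1:93686645-93689176, plus strand, intron included). It had 5.19, 4.27, 3.86 and 7.01 CPM under the label Tmem232-/- and 5.98, 5.93, 5.70 and 5.47 CPM under Tmem232+/+. The libraries labelled Tmem232-/- were spread on both sides of the others, with replicate 4 the highest of all 8 and the other 3 the lowest. The coefficient of variation was 27.6% against 4.11%. The log2 fold change was -0.18 (SE 0.178, edgeR adjusted p = 0.558). It was -0.37 without replicate 4 labelled Tmem232-/- (edgeR adjusted p = 0.114) and between -0.13 and -0.07 without replicate 2 or 3 of this label or replicate 1 labelled Tmem232+/+.

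Among the BH3-only members, Bid links death receptors to mitochondria, since its protein is cut by caspase-8. It lies on chromosome 6 from 120893119 to 120917141, with its BH3 stretch in exon 4 of 6 (chr6:120897283-120897327, minus strand). Its CPM were 6.26, 7.91, 7.84 and 8.73 under the label Tmem232-/- and 8.66, 8.42, 6.90 and 9.27 under Tmem232+/+. The genotypes overlapped over most of their range, and the log2 fold change was -0.11 (SE 0.135, edgeR adjusted p = 0.640). It was -0.03 without replicate 1 labelled Tmem232-/-, the lowest library, and -0.05 or -0.06 without replicate 1 or 4 labelled Tmem232+/+. Bid shares 628 of 3550 exon bases with Bcl2l13 on the opposite strand, which had 51.4 to 58.4 CPM.

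Bcl2l11 encodes BIM, a BH3-only protein that binds all pro-survival members. The gene lies on chromosome 2 from 128126038 to 128162547, with its stretch in exon 3 of 4 (chr2:128147138-128147182, plus strand). It had 10.2, 12.6, 13.3 and 10.3 CPM under the label Tmem232-/- and 13.9, 12.4, 10.8 and 11.2 CPM under Tmem232+/+. The libraries of both labels intermingled, with a log2 fold change of -0.05 (SE 0.126, edgeR adjusted p = 0.822). The sign turned without any of 3 libraries, to 0.06 without replicate 1 of Tmem232+/+ and to 0.0032 and 0.016 without replicates 1 and 4 of Tmem232-/-. It was -0.13 and -0.096 without replicates 3 and 2 of Tmem232-/- and -0.089 without replicate 4 of Tmem232+/+.

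Bbc3 encodes PUMA, a BH3-only protein known as a target of p53. It lies on chromosome 7 from 16308320 to 16318334, and its stretch is in exon 3 of 4 (chr7:16313761-16313805, plus strand). With 29 to 47 counts per library it was thinly sampled, at 2.40, 2.26, 2.15 and 2.40 CPM under the label Tmem232-/- and 1.81, 2.85, 2.41 and 2.58 CPM under Tmem232+/+. The range labelled Tmem232+/+ enclosed that of the other label. The log2 fold change was -0.07 (SE 0.177, edgeR adjusted p = 0.841), and it ran from -0.14 without replicate 1 to 0.02 without replicate 2 labelled Tmem232+/+. Without replicate 3 of Tmem232-/- or replicate 3 or 4 of Tmem232+/+ it was between -0.039 and -0.034.

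Of the pro-survival members, Bcl2l1 was the sole member whose genotypes did not overlap. It lies on chromosome 2 from 152758732 to 152834797, with its stretch in exon 2 of 3 (chr2:152829691-152829735, minus strand). Its CPM were 155, 153, 155 and 149 under the label Tmem232-/- and 172, 158, 164 and 164 under Tmem232+/+. All 4 libraries labelled Tmem232-/- were below the lowest of the others (two-sided p = 0.029 by exact permutation, the lowest value possible for 4 against 4). This exact p was not adjusted over the 10 members, and the next lowest by the same test was 0.114, in Bax and Bak1. Of all tested genes, 18.7% did not overlap in either direction and 6.88% did not overlap with the libraries labelled Tmem232-/- lower. The step was small, with a log2 fold change of -0.11 (SE 0.058, 95% interval -0.23 to 0.02) and an adjusted p of 0.286 from edgeR. In these libraries Bcl2l1 was 1.08-fold higher where labelled Tmem232+/+. Without replicate 1 labelled Tmem232+/+, the highest library, the log2 fold change was -0.04. With limma on the log2 of FPKM plus 1 or plus 0.1 it was -0.16. The adjusted p lay between 0.072 and 0.767 over the alternatives, which included DESeq2 and limma.

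Mcl1, whose protein turns over within hours, lies on chromosome 3 from 95658410 to 95663179, with its stretch in exon 1 of 3 (chr3:95659424-95659468, plus strand). It had 125, 116, 118 and 124 CPM under the label Tmem232-/- and 124, 126, 126 and 121 CPM under Tmem232+/+. Replicate 1 labelled Tmem232-/- stood above 2 libraries of the other label. Its log2 fold change was -0.04 (SE 0.058, 95% interval -0.17 to 0.09, edgeR adjusted p = 0.686). It came to -0.0033 or -0.0062 when replicate 1 or 3 of Tmem232+/+ was left out, and to -0.024 when replicate 2 of Tmem232-/- was. Its coefficients of variation were 3.74% under Tmem232-/- and 1.87% under Tmem232+/+, and Mcl1 and Bcl2l1 had the narrowest intervals of the 10 members.

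Bcl2l2, which encodes BCL-W, lies on chromosome 14 from 54883365 to 54890858, with its stretch in exon 3 of 4 (chr14:54884505-54884549, plus strand). It had 36.7, 41.3, 45.2 and 45.5 CPM under the label Tmem232-/- and 46.4, 50.9, 42.6 and 45.3 CPM under Tmem232+/+. Replicate 1 labelled Tmem232-/- was the lowest and replicate 2 labelled Tmem232+/+ the highest, and the others overlapped. A log2 fold change of -0.13 was found (SE 0.087, edgeR adjusted p = 0.371), which became -0.07 without the lowest and -0.09 without the highest of these libraries. With limma on the log2 of FPKM plus 0.1 it was -0.21. Bcl2l2 shares 594 of 4462 exon bases with the gene model Gm20521 on the same strand, of which 432 are coding.

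Bcl2 itself was represented by 24 to 31 counts per library. It lies on chromosome 1 from 106538176 to 106714290, with its stretch in exon 1 of 2 (chr1:106712569-106712613, minus strand). It had 1.60, 1.69, 1.90 and 1.72 CPM under the label Tmem232-/- and 1.74, 1.57, 1.96 and 1.60 CPM under Tmem232+/+. The ranges nearly coincided, with a log2 fold change of 0.01 (SE 0.176, 95% interval -0.38 to 0.39, edgeR adjusted p = 0.983). With a library left out it lay between -0.04 and 0.11, and was below 0 without replicate 3 of Tmem232-/- or replicate 2 or 4 of Tmem232+/+. At this depth a change within that interval was not detectable. Its exons share 558 of 9157 bases with the antisense gene D630008O14Rik.

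**Figure D3:**
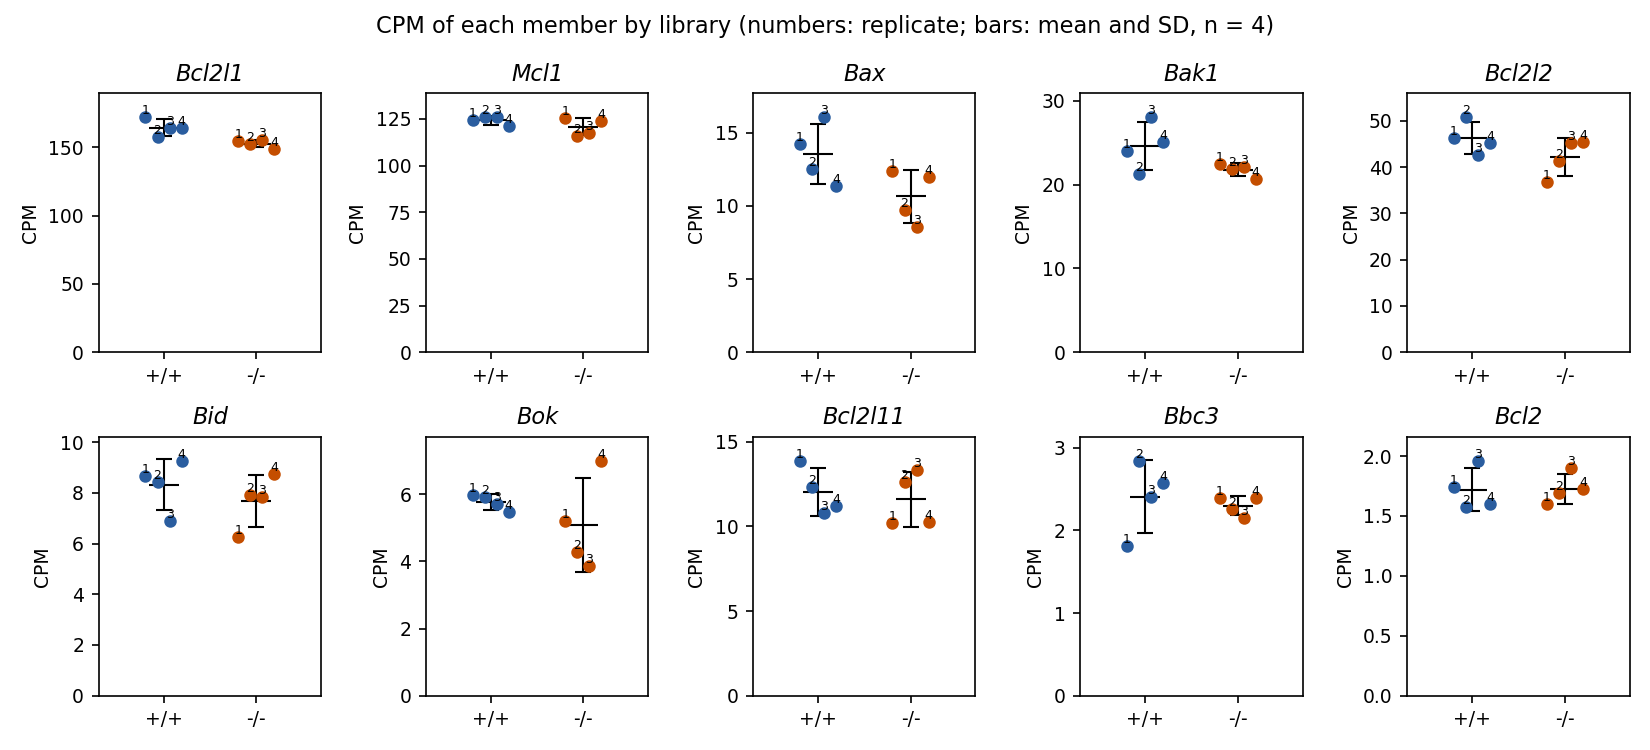
CPM of each member by library (blue +/+, orange -/-), with numbers for replicates, bars for mean and SD of 4, and axes from 0. Bcl2l1 is the one panel in which all orange points, between 149 and 155 CPM, lie below all blue points, between 158 and 172 CPM.

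As a description of the balance between the 2 sides of the family, the FPKM of the 4 pro-survival members was set against the sum of all 10. The sum was 147, 143, 143 and 156 FPKM under the label Tmem232-/- and 165, 163, 174 and 161 FPKM under Tmem232+/+. The libraries labelled Tmem232-/- were thus lower without overlap, at 147 ± 5.89 against 166 ± 5.82 FPKM (SD, n = 4 each), where Bcl2l1 alone made up 41.9% and 41.7% of the sum. FPKM carry no TMM scaling. With limma on the log2 of FPKM plus 1 or plus 0.1, the median log2 fold change of all tested genes was -0.068 or -0.086. It was -0.054 in edgeR on the counts. The pro-survival share was 72.8%, 73.3%, 74.7% and 72.5% under the label Tmem232-/- and 71.6%, 72.5%, 70.5% and 72.2% under Tmem232+/+. The means were 73.3% ± 0.97 and 71.7% ± 0.88 (SD, n = 4 each), a difference of 1.61 percentage points, and no test was run on this share. The FPKM shares did not overlap, with 72.51% the lowest labelled Tmem232-/- and 72.47% the highest labelled Tmem232+/+. With CPM in place of FPKM the difference was 0.833 percentage points, and the shares overlapped (lowest 83.97% against highest 84.14%). Bax made up 9.93% ± 1.26 and 11.6% ± 1.29 of the sum (SD, n = 4 each). Mcl1 made up 24.5% ± 0.30 under the label Tmem232-/- and 22.97% ± 0.79 under Tmem232+/+ (SD, n = 4 each). In FPKM, the ranges of the shares of Bcl2l1 and of Bax overlapped between the labels, and those of Mcl1 did not. With CPM in place of FPKM the ranges of the share of Mcl1 overlapped too. The level of Mcl1 itself had a log2 fold change of -0.04 in edgeR.

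The ratio of Bax to Bcl2, often quoted as an index of readiness for apoptosis, was 75.5, 56.4, 46.4 and 65.9 in replicates 1 to 4 labelled Tmem232-/-. In those labelled Tmem232+/+ it was 81.6, 78.9, 78.9 and 70.7. The ranges overlapped, since replicate 1 labelled Tmem232-/- was above replicate 4 labelled Tmem232+/+. On the log2 scale the means were 5.91 ± 0.30 and 6.28 ± 0.09 (SD, n = 4 each). Its denominator rests on at most 31 counts per library. Bcl2l1 was 4.28 ± 0.63 times the FPKM of Bax in the libraries labelled Tmem232-/- and 3.64 ± 0.41 times in the others (SD, n = 4 each), a ratio chosen after the levels were seen.

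**Figure D4:**
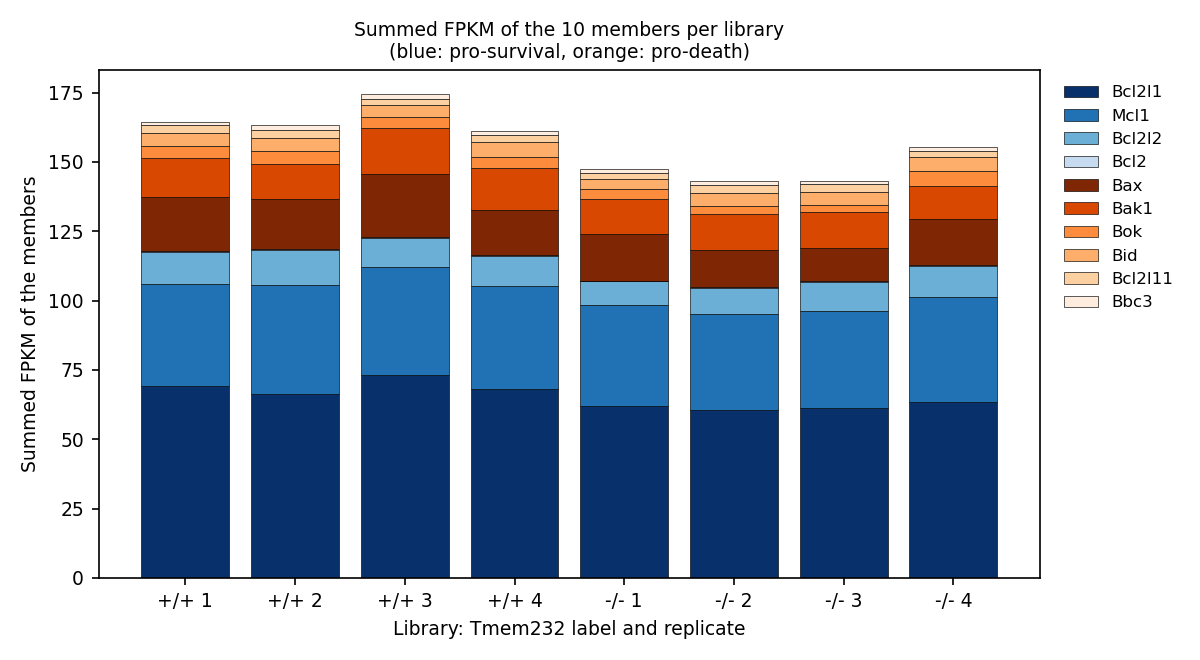
Summed FPKM of the 10 members in each library, stacked by member with pro-survival members in blue and pro-death members in orange. The bars labelled +/+ reach between 161 and 174 FPKM and those labelled -/- between 143 and 156 FPKM, and Bcl2l1 and Mcl1 fill most of each bar.

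Of 18 other genes of the family, 16 were in the table and 11 were tested. Of these, 1 rose and 2 fell, Bcl2l14 being higher and Bcl2l12 and Bik lower in the libraries labelled Tmem232-/-, and the median log2 fold change of the 11 was -0.22. Over all tested genes, 10.3% were higher and 1.46% were lower by the same threshold. Bcl2l14, which encodes BCL-G, had 89.9, 80.9, 71.2 and 66.4 CPM under the label Tmem232-/- and 32.3, 26.7, 37.7 and 33.8 CPM under Tmem232+/+. The genotypes were far apart, with a 2.36-fold rise (log2 fold change 1.24, SE 0.119, edgeR adjusted p = 4.8e-05) that passed in 17 of 17 alternatives. Spermatid markers were higher in the same libraries, with median log2 fold changes of 1.12 in 8 markers of round and 2.69 in 11 markers of elongating spermatids. Its exons share 577 of 4093 bases with the antisense gene 4933406J09Rik.

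Bcl2l12, whose protein is known to bind p53 and caspase-7, had 50.1, 42.7, 49.3 and 54.4 CPM under the label Tmem232-/- and 62.2, 58.0, 75.9 and 57.4 CPM under Tmem232+/+. The genotypes did not overlap, with a log2 fold change of -0.37 (SE 0.104, edgeR adjusted p = 0.042). The call was lost in 5 of 8 fits that left out a library, with an adjusted p from edgeR of 0.086, 0.128 and 0.089 without replicates 1, 2 and 3 labelled Tmem232-/- and of 0.136 and 0.089 without replicates 1 and 3 labelled Tmem232+/+. With all 8 libraries and no pairing, it was also lost with the size factors of DESeq2 (adjusted p = 0.064) and without a filter on low counts (adjusted p = 0.081). It shares 88 of 1976 exon bases with Irf3 and 572 with Gm15545, both on the opposite strand. Of the bases shared with Gm15545, 227 are coding in Bcl2l12. Irf3 had a log2 fold change of -0.29 (edgeR adjusted p = 0.113). Without replicate 3 of Tmem232+/+ the log2 fold changes of Bcl2l12 and Irf3 were -0.24 and -0.17.

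Bik, a BH3-only gene whose protein resides at the endoplasmic reticulum, had 2.20, 2.26, 1.90 and 3.38 CPM under the label Tmem232-/- and 3.74, 4.06, 4.81 and 3.26 CPM under Tmem232+/+. The genotypes overlapped by their replicates 4. Bik had a log2 fold change of -0.70 (SE 0.205, edgeR adjusted p = 0.049). The call was lost without any of 7 libraries, with an adjusted p between 0.051 and 0.130 from edgeR, and was kept without replicate 4 labelled Tmem232-/- alone. With all 8 libraries and no pairing, it was also lost with DESeq2 (adjusted p = 0.057), with its size factors in edgeR (adjusted p = 0.059) and without a filter on low counts (adjusted p = 0.072).

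The wider apoptosis pathway was followed in 6 further lists. None of 10 genes of cytochrome c release and the apoptosome passed the test, and the one with the highest mean FPKM, the mitochondrial channel gene Vdac3, had a log2 fold change of 0.02, which lay between -0.02 and 0.07 with a library left out and was below 0 without replicate 1 of Tmem232-/- or replicate 2 or 4 of Tmem232+/+. Of 8 tested caspases, Casp1 rose. This inflammatory caspase had 1.53, 1.13, 1.08 and 1.60 CPM under the label Tmem232-/- and 0.249, 0.605, 0.76 and 0.737 CPM under Tmem232+/+. The genotypes did not overlap (log2 fold change 1.17, SE 0.318, edgeR adjusted p = 0.034), but these levels rest on 4 to 26 counts per library. The adjusted p was between 0.051 and 0.096 without replicate 1, 2 or 4 of either label. On the scale of log2 FPKM plus 1, which understates the change of low genes, the difference of Casp1 was 0.46 (limma adjusted p = 0.022). Casp6, the caspase with the highest mean FPKM, had a log2 fold change of -0.16 (edgeR adjusted p = 0.413), which was -0.26 without replicate 4 of Tmem232-/- and -0.09 without replicate 1 of Tmem232+/+.

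None of 8 tested inhibitors of apoptosis, 6 tested genes of the death receptor pathway and 11 tested genes of p53 and its targets passed the test. The genes with the highest mean FPKM of each, Birc5, Tnfrsf1a and Mdm2, had log2 fold changes of -0.03, -0.19 and 0.12. The sign of Birc5 turned, to 0.05, and Mdm2 came to 0.19 when replicate 1 of Tmem232+/+ was left out. Trp53, which encodes p53 and is named here after its values were seen, had 29.6, 27.8, 31.8 and 35.6 CPM under the label Tmem232-/- and 36.5, 39.0, 44.8 and 35.7 CPM under Tmem232+/+. Its genotypes did not overlap, by a margin of less than 1 CPM (log2 fold change -0.32, SE 0.099, edgeR adjusted p = 0.062). The adjusted p of Trp53 lay between 0.040 and 0.178 over its alternatives, and the 0.040 came from the fit without replicate 4 of Tmem232-/-. Among 14 partners of BCL-2 proteins or enzymes of their turnover, 2 rose. Bag5, a co-chaperone of HSP70, had 405, 374, 353 and 363 CPM under the label Tmem232-/- and 324, 279, 312 and 298 CPM under Tmem232+/+. All libraries labelled Tmem232-/- were above the others (log2 fold change 0.30, SE 0.072, edgeR adjusted p = 0.017). The call was lost when replicate 1 of Tmem232-/- or replicate 2 or 4 of Tmem232+/+ was dropped, where edgeR gave an adjusted p of 0.057, 0.058 and 0.066.

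Dynll2, a dynein light chain that can hold the BH3-only protein BMF, had 112, 101, 102 and 109.8 CPM under the label Tmem232-/- and 88.6, 90.4, 89.9 and 91.2 CPM under Tmem232+/+. The genotypes were apart here too (log2 fold change 0.24, SE 0.061, edgeR adjusted p = 0.025). The same 3 libraries decided this call, with an adjusted p of 0.077, 0.061 and 0.074 from edgeR without each. With all 8 libraries and no pairing, it was 0.060 with library size alone. Mtch2, which has the highest mean FPKM of this list and encodes a mitochondrial receptor of truncated BID, had a log2 fold change of 0.12 (edgeR adjusted p = 0.259). In all 8 lists, family genes included, 4 of 68 tested genes were higher and 2 were lower, a share to be read against the 11.8% of all tested genes.

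**Figure D5:**
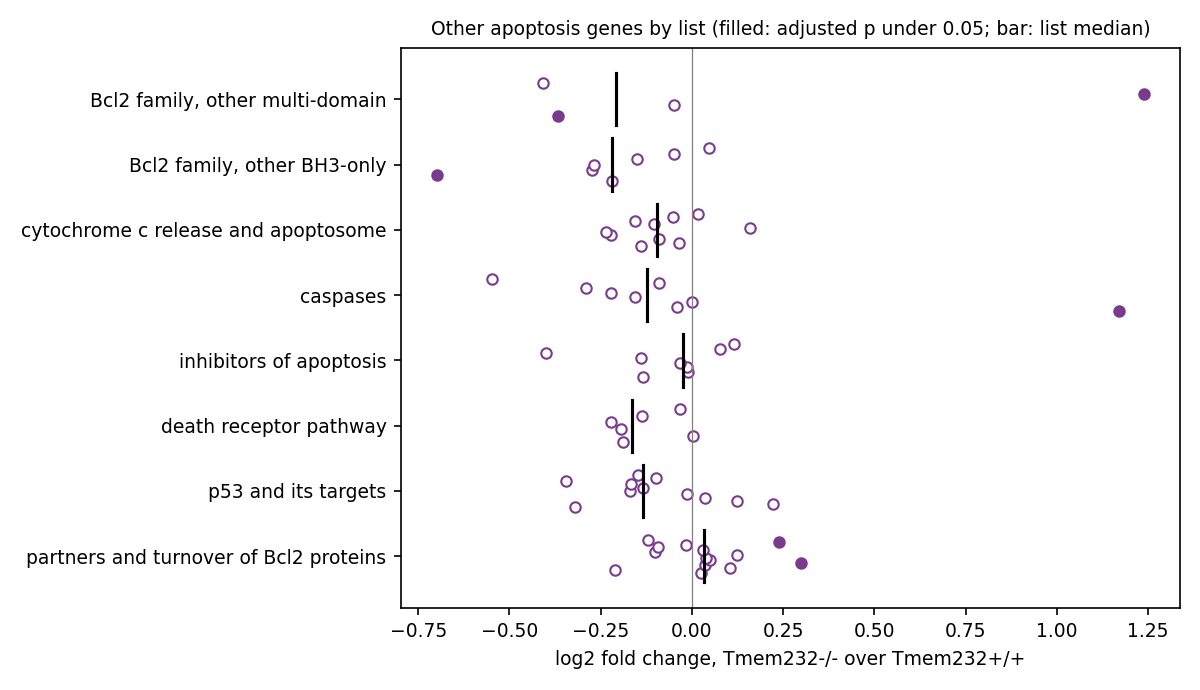
Log2 fold change of the 68 tested genes of 8 apoptosis lists in the libraries labelled Tmem232-/- over those labelled Tmem232+/+, with filled points for an adjusted p under 0.05 and a bar at each list's median. The medians run from -0.22 in the other BH3-only genes to 0.03 in the partners, and 6 points are filled.

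Markers of cell types differed with the genotype labels. Of 83 tested marker genes, 18 were higher and 8 were lower in the libraries labelled Tmem232-/-, where 10.3% and 1.46% of all tested genes were. All 11 markers of elongating spermatids were higher, with a summed level of 1347 to 2242 CPM against 342 to 688 CPM, and 7 of 8 markers of round spermatids were higher, with 722 to 914 against 386 to 524 CPM. Of 9 tested markers of spermatogonia 3 were lower, with 222 to 242 against 265 to 289 CPM, and 2 of 5 markers of peritubular myoid cells were lower, with 197 to 236 against 250.2 to 296 CPM. Of 10 markers of spermatocytes 2 were lower, with 2660 to 3379 against 3077 to 3481 CPM, and of 3 tested markers of lymphocytes 1 was lower and the others had positive log2 fold changes, with 5.25 to 7.52 against 6.17 to 7.98 CPM. None of 8 markers of Leydig cells passed in edgeR, 5 having an unadjusted p under 0.05, with a median log2 fold change of 0.41 and 481 to 711 against 308 to 540.2 CPM. Nor did any of 10 markers of Sertoli cells (median -0.14, 2 at an unadjusted p under 0.05), 5 of red blood cells (median -0.63, all negative), 7 of macrophages (median 0.06) or 7 of endothelial cells (median -0.0058, 1 at an unadjusted p under 0.05), whose summed levels overlapped between the labels. No marker of any list was at 0 in all libraries. The part of these cell types in the levels of the members, of Bcl2l14 and of the other named genes was not tested.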

How the data were processed

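Testis RNA was extracted with TRIzol, made into libraries with a TruSeq kit and sequenced on a BGIseq-50 in pairs of reads, each mouse giving 1 library. Low-quality reads were discarded by the authors, who aligned the rest to GRCm38.p6 using HISAT and Bowtie2 and counted with StringTie and featureCounts, whose versions are not given in the sources used here. The deposited estimated counts carry no normalization, and between 10.7% and 11.2% of genes per library have a count that is not whole. These were rounded. The deposited FPKM values are scaled by transcript length and by the counts of the library. The deposited log2 fold change, p-value and q-value are the authors' own DESeq2 comparison, and the deposited means were likewise left unused.

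The counts were tested in R 4.3.3 with edgeR 4.0.16 (default filter on low counts, TMM scaling, quasi-likelihood test without covariates) on all 8 libraries, with Benjamini-Hochberg adjustment over the 15787 tested genes. Single members were also compared by a two-sided exact permutation test of CPM over 70 arrangements. DESeq2 1.42.0 and limma 3.58.1 served as alternatives, beside other scalings, filters, pseudocounts (1 and 0.1 on FPKM), a block for the replicate number and fits that dropped 1 library at a time. The steps were tested on simulated data. Gene positions are those of the table, with chromosomes from RefSeq by gene identifier, and exons and sequences are from GENCODE vM21. Python 3.11.15 with pandas 2.3.3 and numpy 2.4.6 was used.

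Named genes were the 10 members, Tmem232, every other family gene that passed, and of each other list up to 2 passing genes per direction and the most abundant gene. Irf3, Ggnbp1 and Bcl2l13 were added as overlapping neighbours and Trp53 after its values were seen. Abundance within a list was ranked by mean FPKM. The members and lists were chosen with earlier results of these data known. Counting error alone limits a gene without counts to 3 counts per library. No further columns of samples were in the table.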

Additional observations from a re-analysis of the deposited data

Results flagged for a closer look

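Among the CPM of the members and the other named genes, the summed FPKM and the pro-survival share, 58 groups of 4 libraries were examined for a library far from the others, where chance gives about 2.9. A single library was found. Casp6 had 18.6 CPM in replicate 4 labelled Tmem232-/-, and the gap to the next library was 0.937 of the range of that group. Leaving it out, Casp6 had a log2 fold change of -0.26 in place of -0.16. None of the members had such a library under this measure, although replicate 4 labelled Tmem232-/- was also the highest for Bok.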

How the results depend on the processing

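The 17 alternative fits gave 170 values of members, of which 159 kept their direction and 0 passed an adjusted p of 0.05 in edgeR, DESeq2 or limma. The smallest adjusted p was 0.072 and the largest absolute log2 fold change 0.43. The number of members at an unadjusted p under 0.05 was 0 to 3. The 11 values that turned sign were small. Bcl2 turned to -0.025 with library size alone and to -0.0056 or -0.019 with FPKM plus 1 or 0.1, and lay between -0.040 and 0.11 with a library left out. Mcl1 turned to 0.000201 without a filter on low counts. With a library left out, Bcl2l11 lay between -0.13 and 0.062 and Bbc3 between -0.14 and 0.022. Of other named genes, Vdac3 turned to -0.018 with library size alone and to -0.019 with FPKM plus 1 or 0.1, and Birc5 to 0.0097 without a filter on low counts. With a library left out, Vdac3 lay between -0.022 and 0.071 and Birc5 between -0.061 and 0.048. The median of the 15787 tested genes, or of those tested instead, was -0.05 and moved by at most 0.054 on the log2 scale, to 3.3e-05 without a filter on low counts.

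The replicate numbers were not taken as a pairing of the libraries. The deviations of libraries with the same number had correlations of -0.108, 0.122, -0.413 and -0.132. Those of libraries with different numbers had correlations between -0.381 and 0.461. With 4 libraries per label, these correlations cannot exclude a pairing. With the number as a replicate block, 0 members and 1 of the other apoptosis genes passed in place of 6, namely Bcl2l14. The adjusted p under the block was 0.074 for Bcl2l12, 0.138 for Bik, 0.095 for Casp1, 0.065 for Bag5 and 0.137 for Dynll2, and Tmem232 had a log2 fold change of 0.26 with an adjusted p of 0.114 from edgeR. With a library left out, 1 to 6 of these other genes passed (1 without replicate 1 of Tmem232-/-, 2 without replicate 2 or 4 of Tmem232+/+, 3 without replicate 2 of Tmem232-/- or replicate 1 of Tmem232+/+). The 6 without replicate 4 of Tmem232-/- had Trp53 in place of Casp1. With a library left out, the log2 fold change of Tmem232 was 0.21 to 0.32. The cause of these changes was not tested. Without a block and with all libraries, 4 to 6 of these genes passed, and Casp1 was not tested with a minimum of 10 counts in every library. Of the marker genes, 22 to 28 passed in place of 26 under alternatives that were chosen after seeing the data. The pro-survival share differed by 1.16 to 1.88 percentage points with a library left out and by 0.833 with CPM in place of FPKM. Bcl2 and Bbc3 rest on fewer than 50 counts per library, which limits what could be detected for them.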

Other observations

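The strand column of the deposited table gives plus for Bcl2 and Bcl2l1, whereas GENCODE places both on the minus strand, and the strands printed above are those of GENCODE. Of 9605 minus-strand genes matched by symbol, 2663 were listed as plus in the table, and of 9624 plus-strand genes 1 was listed as minus. Whether the strand column was used in counting is not given in the sources used here.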
